A study of Mus musculus with 8 samples.

Results

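Aquaporins are membrane channels that let water, and in some members glycerol or hydrogen peroxide, pass along a gradient. The colon takes up water by moving salt across its epithelium, and water follows through the cells and between them. Aqp4 is a water channel of basolateral membranes, Aqp8 a channel for water and hydrogen peroxide found in absorptive colonocytes, and Aqp1 a water channel best known from capillary endothelium, red blood cells and kidney tubules. Aqp3 and Aqp7 are aquaglyceroporins, which also pass glycerol, and Aqp11 is a divergent member that sits in intracellular membranes.

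The 6 aquaporin genes Aqp1, Aqp3, Aqp4, Aqp7, Aqp8 and Aqp11 were followed by RNA-seq of epithelial cells from mouse distal colon. They were picked by symbol, and their 6 Ensembl IDs stand among 54141 in the table. Of 8 libraries, 4 came from mice homozygous for a mutant Degs2 (Degs2_KO) and 4 from wild type mice (WT), all on a c57bl6/j background. In both genotypes the cells were released with EDTA and passed through a strainer. Neither the ages of the mice, nor which exons the Degs2 mutation affects, nor whether each library is a different mouse is stated in the labels, so the spread behind each p-value may in part be technical.

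Between 32.8 and 49.8 M fragments per library were recovered from the deposited values. Degs2, which encodes a sphingolipid desaturase and hydroxylase, was at 53.3, 47.7, 65.6 and 65.9 CPM (counts scaled to a common library total) in Degs2_KO replicates 1 to 4, against 151, 110, 106 and 120 CPM in WT replicates 1 to 4, with no overlap. Its log2 fold change was -1.07 ± 0.15 (SE), and with an adjusted p of 0.796 by edgeR it did not pass the threshold of 0.05. Its annotated exons overlap those of Evl. Epithelial markers (Epcam, Vil1, Cdh1, Cdx2 and 4 keratins) summed to between 13519 and 15251 CPM in Degs2_KO and between 12809 and 16531 CPM in WT. Degs2_KO replicate 3 and WT replicate 1 stood apart from the other 6 libraries. Hoxd13, a transcription factor gene of the posterior gut, was at 0.3 CPM in Degs2_KO replicate 3 and 0.695 CPM in WT replicate 1, while the others ranged from 38.8 to 85.3 CPM. On the first principal component, which carried 50.3% of the variance, these libraries lay at -59.1 and -53.9, while the others lay at -1.09 or above. Results are given with and without them.

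Promoter sequence is shown for 3 members, because Aqp1 and Aqp11 were highest in the same 2 libraries and Aqp8 was not. Each run holds 200 bases, from 250 to 51 bases before the RefSeq start (GRCm38.p6), 5′ to 3′ on the strand of the gene, with CpG dinucleotides in capitals. The windows are chr6:55336049-55336248 (plus strand) for Aqp1, chr7:123462044-123462243 (plus strand) for Aqp8 and chr7:97738298-97738497 (minus strand) for Aqp11.
Aqp1: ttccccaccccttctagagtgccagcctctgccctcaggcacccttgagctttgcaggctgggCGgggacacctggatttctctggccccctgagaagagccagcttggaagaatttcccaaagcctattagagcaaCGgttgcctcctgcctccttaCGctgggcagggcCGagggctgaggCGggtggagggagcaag
Aqp11: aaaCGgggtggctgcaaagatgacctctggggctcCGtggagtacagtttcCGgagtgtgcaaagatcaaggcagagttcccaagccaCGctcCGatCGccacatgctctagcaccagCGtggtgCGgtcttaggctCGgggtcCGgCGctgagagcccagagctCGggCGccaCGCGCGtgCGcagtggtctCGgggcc
Aqp8: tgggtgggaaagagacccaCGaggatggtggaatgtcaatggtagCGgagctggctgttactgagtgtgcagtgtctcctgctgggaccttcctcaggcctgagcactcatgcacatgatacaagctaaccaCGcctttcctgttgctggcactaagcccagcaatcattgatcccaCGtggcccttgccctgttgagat

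The Aqp11 window held 18 CpG dinucleotides and 65% G or C, the Aqp1 window 5 and 62%, and the Aqp8 window 4 and 55%. Over the 32851 promoter windows of that length the median was 4 CpG dinucleotides and 51.5% G or C, and 87.6% of them had fewer CpG dinucleotides than Aqp11. A search of both strands for 6 motifs found no match in these 3 windows. The windows stop 51 bases before the start, so a TATA box nearer the start would have been missed. The TATA box, spelled TATAAA, was in 9.14% of all windows and the CDX motif TTTATG in 8.78%. The posterior HOX motif CAATAAA was in 3.47%, and the HNF1 half-site GTTAAT in 5.33%. The GATA motif AGATAA was in 8.42% and the steroid receptor half-site AGAACA in 13.2%. RefSeq promoters were matched for 5 of the 6 genes, all except Aqp4.

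Aqp4 and Aqp8 made up most of the aquaporin RNA, and Aqp3 and Aqp7 were close to absent. Levels of different genes were compared per length, as CPM divided by the kilobases (kb) of annotated exon. On that scale Aqp4 averaged 217 ± 52.9 CPM per kb in Degs2_KO and 189 ± 39.6 CPM per kb in WT (SD, n = 4 each). Aqp8 averaged 158 ± 55.1 CPM per kb in Degs2_KO and 170 ± 22.8 CPM per kb in WT. Aqp1 followed at 20.3 ± 14.8 CPM per kb in Degs2_KO and 17.2 ± 12.1 CPM per kb in WT, and Aqp11 at 2.38 ± 0.564 CPM per kb in Degs2_KO and 2.54 ± 0.643 CPM per kb in WT. Among 16119 tested genes with a length, Aqp4 ranked 181, Aqp8 245, Aqp1 2722 and Aqp11 9446 by the mean over all libraries, where the median gene was at 3.91 CPM per kb.

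The order of Aqp4 and Aqp8 was not settled by these values. Aqp4 exceeded Aqp8 per kb in 6 of 8 libraries, with the highest ratio, 2.3, in Degs2_KO replicate 4 and the lowest, 0.903, in WT replicate 1. With the longest annotated transcript as the length (5.05 kb in place of 6.23 kb for Aqp4, 1.49 kb in place of 1.58 kb for Aqp8), Aqp4 was the higher in 8 of 8. The other steps of the order, Aqp8 over Aqp1, Aqp1 over Aqp11 and Aqp11 over the rest, held without overlap between libraries. Of the summed level per kb of the 6 genes, Aqp4 held 54.5% ± 9.95 in Degs2_KO and 49.6% ± 5.25 in WT, and Aqp8 held 39.2% ± 8.63 in Degs2_KO and 44.8% ± 1.24 in WT (SD, n = 4 each).

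**Figure D1:**
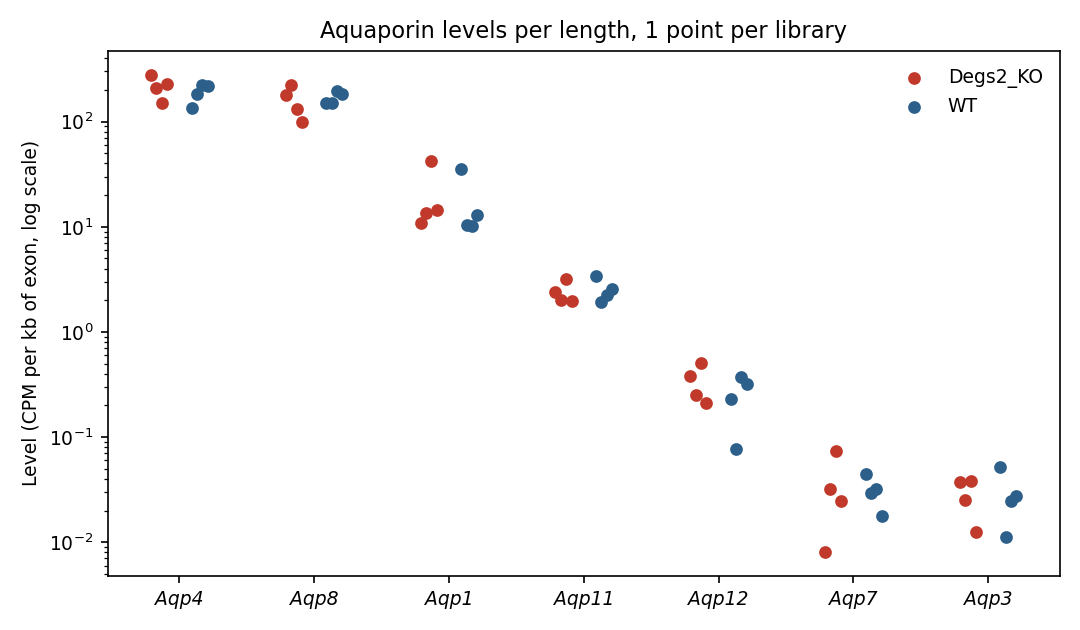
Level of 7 aquaporins per length (CPM per kb of exon, log scale), 1 point per library, Degs2_KO in red and WT in blue. Aqp4 and Aqp8 lie together at the top, from 98.3 to 280 CPM per kb, while Aqp12, Aqp7 and Aqp3 lie under 1 CPM per kb.

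Aqp4 (ENSMUSG00000024411, chromosome 18, 15389496 to 15410982, minus strand, GRCm38), whose span holds AC133525.2 with no shared exon, was the most abundant aquaporin in fragments, with 234888 over the Degs2_KO libraries and 196871 over the WT libraries. It was at 1743, 1308, 942 and 1408 CPM in Degs2_KO replicates 1 to 4, against 845, 1147, 1380 and 1351 CPM in WT replicates 1 to 4. Degs2_KO replicate 1 was the highest of all, Degs2_KO replicate 3 and WT replicate 1 were the lowest, and the groups overlapped. The log2 fold change of Degs2_KO over WT was 0.19 ± 0.21 (SE), with a 95% interval of 0.817- to 1.6-fold. edgeR's quasi-likelihood test gave, after Benjamini-Hochberg adjustment over all genes, an adjusted p of 1.

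Aqp8 (ENSMUSG00000030762, chromosome 7, 123462291 to 123468004, plus strand) behaved differently from library to library. It was at 283, 355, 209 and 155 CPM in Degs2_KO replicates 1 to 4, against 237, 239, 307 and 291 CPM in WT replicates 1 to 4. Degs2_KO held both the highest library (replicate 2) and the lowest (replicate 4), with all WT libraries between them. The log2 fold change was -0.10 ± 0.23 (SE; 95% interval 0.645- to 1.35-fold), with an adjusted p of 1 by edgeR's quasi-likelihood test. Without Degs2_KO replicate 4 it was 0.07, so the sign rested on that library.

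Aqp1 (ENSMUSG00000004655, chromosome 6, 55336432 to 55348555, plus strand) was about 3 times as high in 2 libraries, which belong to different genotypes, as in the rest. It was at 28.5, 35.6, 112 and 37.8 CPM in Degs2_KO replicates 1 to 4, against 92.7, 27.6, 26.9 and 33.7 CPM in WT replicates 1 to 4. Degs2_KO replicate 3 and WT replicate 1 were 3.52 and 2.93 times the mean of the other 6 libraries, which lay between 26.9 and 37.8 CPM. The log2 fold change between genotypes was 0.24 ± 0.54 (SE; 95% interval 0.504- to 2.76-fold), with an adjusted p of 1 by edgeR's quasi-likelihood test. The estimate was -0.41 without Degs2_KO replicate 3, 0.87 without WT replicate 1 and 0.21 ± 0.14 without both.

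Aqp11 (ENSMUSG00000042797, chromosome 7, 97724006 to 97738289, minus strand) varied in the same libraries but less. It was at 22.5, 18.7, 29.9 and 18.5 CPM in Degs2_KO replicates 1 to 4, against 32.2, 18.2, 20.9 and 24.3 CPM in WT replicates 1 to 4. Degs2_KO replicate 3 and WT replicate 1 were the highest, and the groups overlapped. The log2 fold change was -0.10 ± 0.21 (SE; 95% interval 0.674- to 1.3-fold), with an adjusted p of 1 by edgeR's quasi-likelihood test. Without WT replicate 1 it was 0.09, and without both libraries -0.08.

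**Figure D2:**
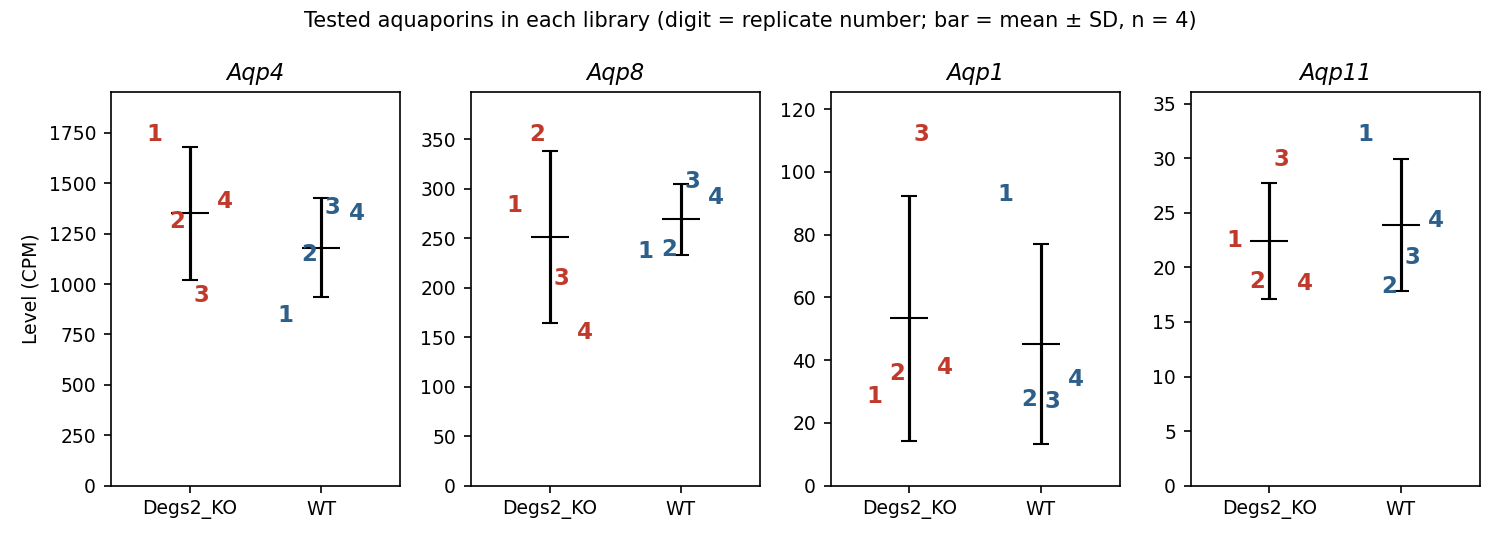
CPM of the 4 tested aquaporins in each library, Degs2_KO in red on the left and WT in blue on the right of each panel. Digits mark the replicate and bars the mean ± SD (n = 4). Degs2_KO replicate 3 and WT replicate 1 are the highest for Aqp1 (112 and 92.7 CPM) and the lowest for Aqp4 (942 and 845 CPM).

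Aqp3 (ENSMUSG00000028435, 41092722 to 41098183) and Aqp7 (ENSMUSG00000028427, 41033074 to 41048139) lie 44.6 kb apart on the minus strand of chromosome 4. Both were removed by the filter on low counts. Aqp3, which is known on the colon epithelium of human and rat, had 3, 2, 3 and 1 fragments in Degs2_KO replicates 1 to 4, against 3, 1, 2 and 2 fragments in WT replicates 1 to 4. No library exceeded 3 fragments, and with the gene removed by the filter no fold change is given. Aqp7, the glycerol channel of adipocytes, had 1, 4, 9 and 3 fragments in Degs2_KO replicates 1 to 4, against 4, 4, 4 and 2 fragments in WT replicates 1 to 4. Its sums were 17 fragments in Degs2_KO and 14 fragments in WT, and the library with 9 was Degs2_KO replicate 3.

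Between the genotypes, 0 of the 4 tested aquaporins passed edgeR's adjusted threshold of 0.05, where 0% of the 16132 genes tested did. None had an unadjusted p under 0.05, against 1.13% of all tested genes (183), and none had groups that did not overlap, against 1.05% of all tested genes. DESeq2, run without the filter, called 2 genes in all, 0.00707% of 28275, and limma-trend and limma-voom called 0. Without WT replicate 1 the number of genes with an unadjusted p under 0.05 was 782, and without both libraries that stood apart it was 650 of 16214.

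**Figure D3:**
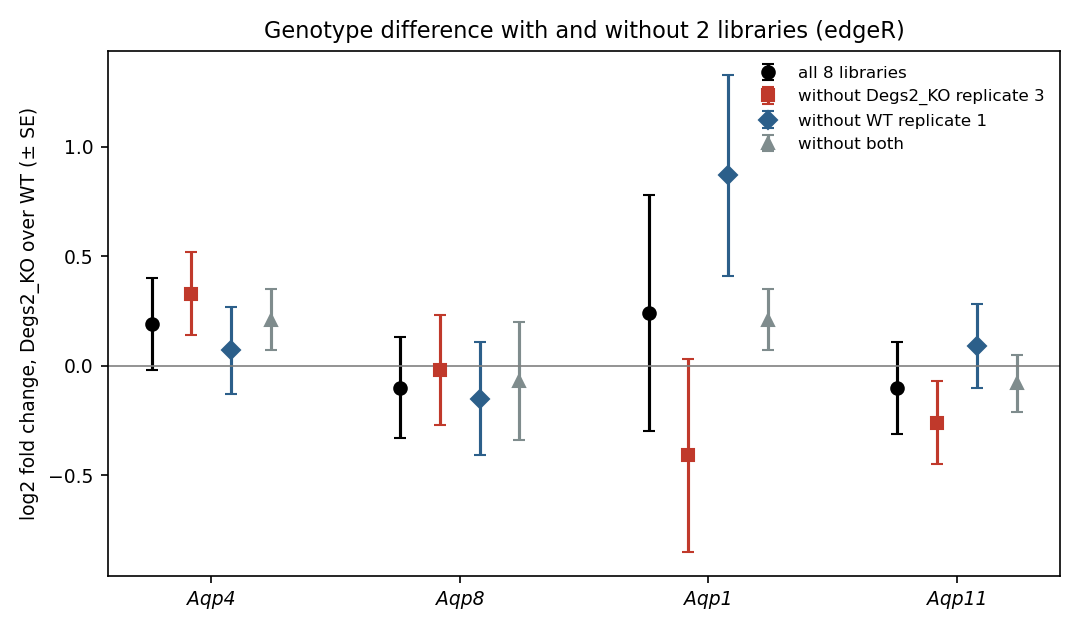
Log2 fold change of Degs2_KO over WT (± SE, edgeR) for 4 aquaporins, with all 8 libraries (black), without Degs2_KO replicate 3 (red), without WT replicate 1 (blue) and without both (grey). For Aqp1 the estimate moves between -0.41 and 0.87 with the library left out, while Aqp4 stays above 0.

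The contrast between the 2 libraries that stood apart and the other 6 was larger for Aqp1 than the estimated genotype difference of any of the 4 tested aquaporins. It is a description, since these libraries were singled out by the data. Aqp1 and Aqp11 were above all 6 other libraries in both, as were 17.8% of all tested genes, and Aqp4 was below them in both, as were 16.6%. Aqp4 was at 942 CPM in Degs2_KO replicate 3 and 845 CPM in WT replicate 1, against 1147 to 1743 CPM in the others. Aqp8, at 209 and 237 CPM, lay within the range of the others (155 to 355 CPM).

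Position markers moved with these values. The 6 posterior Hox genes on the marker list summed to 140 CPM in Degs2_KO replicate 3 and 143 CPM in WT replicate 1, and to between 367 and 493 CPM in the others. Hoxd13, already used to show that these libraries stood apart, is among the 6, so the sum is not a separate observation. The list of small intestine and proximal gut genes summed to 492 and 420 CPM in these libraries and to between 72.3 and 226 CPM in the others, led by Fabp2, a fatty acid binding protein gene, at 435 and 354 CPM. Sis, the sucrase-isomaltase gene, was at 6.38 and 13.9 CPM there and at 0.677 CPM or less elsewhere, while Apoa4 and Lct, defining genes of the small intestine, stayed under 1 CPM in every library. Among the other 6 libraries, WT replicates 2 and 3 had the highest posterior sums (490 and 493 CPM) and the lowest Aqp1 levels (27.6 and 26.9 CPM). Aqp4, in contrast, was at 1147 and 1380 CPM in WT replicates 2 and 3, where all 6 ranged from 1147 to 1743 CPM. Aqp11 was at 18.2 and 20.9 CPM there, where all 6 ranged from 18.2 to 24.3 CPM. The part of position in the aquaporin values was not tested.

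**Figure D4:**
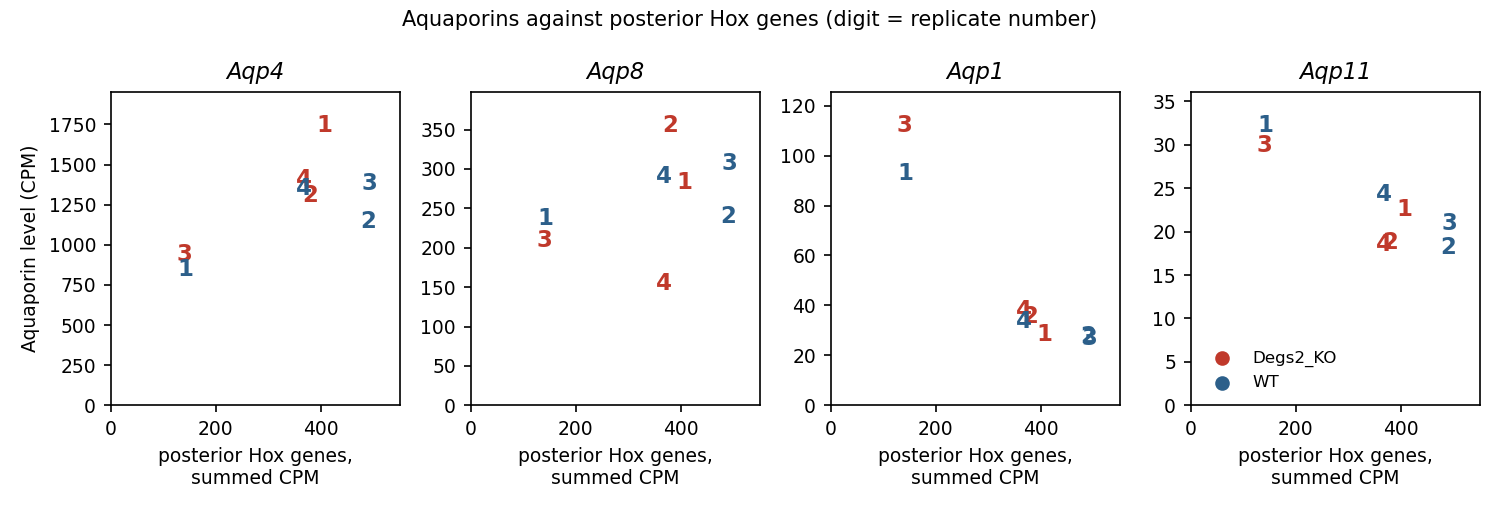
CPM of each tested aquaporin against the summed CPM of 6 posterior Hox genes (Hoxd13 among them), 1 digit (replicate number) per library, Degs2_KO in red and WT in blue. Degs2_KO replicate 3 and WT replicate 1 lie at the left of each panel (140 and 143 CPM), with Aqp1 and Aqp11 high, Aqp4 low and Aqp8 inside the range of the rest.

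Summed markers of endothelium and red blood cells were not highest where Aqp1 was. The 10 endothelial genes summed to between 7.39 and 10.3 CPM in Degs2_KO and between 9.78 and 14.1 CPM in WT, with 7 of them under 1 CPM in every library. Degs2_KO replicate 3, where Aqp1 was at 112 CPM, had the lowest endothelial sum. WT replicate 1, where Aqp1 was at 92.7 CPM, had a sum of 10.5 CPM, below only WT replicate 3 at 14.1 CPM. The 7 red blood cell genes summed to 4.16 CPM in Degs2_KO replicate 3 and 5.28 CPM in WT replicate 1, within the range of 2.51 to 9.38 CPM in the others. Esam, a junction protein gene that other cells also make, was at 0.901 CPM in Degs2_KO replicate 3 and 1.04 CPM in WT replicate 1, against 0.498 to 0.901 CPM in the others. Tek, an endothelial receptor gene, was at 0.254 CPM in Degs2_KO replicate 3 and 0.253 CPM in WT replicate 1, against 0.0458 to 0.204 CPM in the others. Vwf was the largest part of the endothelial sum. It was at 2.96 CPM in Degs2_KO replicate 3, 5.18 CPM in WT replicate 1 and 4.29 to 7.43 CPM in the others. In bulk RNA, fewer cells of a type and less RNA per cell cannot be told apart. The part of endothelial and red blood cells in the Aqp1 values was not tested.

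Summed markers of further cell types ranged from 1.06 CPM for myeloid genes to 56.9 CPM for adipocyte genes. Genes of enteric glia and neurons, which could carry Aqp4, summed to between 2.36 and 3.01 CPM in Degs2_KO and between 2.61 and 4.58 CPM in WT. Of the 6 adipocyte genes, Adipoq, Plin1, Fabp4 and Lep were under 1 CPM in every library, with Lep at 0. The list's sum was highest in Degs2_KO replicate 3 (56.9 CPM) and WT replicate 1 (45.9 CPM), against 9.98 to 26.3 CPM in the others, and consisted mostly of Lpl, the lipoprotein lipase gene, at 47.8 CPM in Degs2_KO replicate 3 and 40 CPM in WT replicate 1. The sum of the 6 T cell genes was also highest in these libraries, at 11.9 CPM in Degs2_KO replicate 3 and 15.6 CPM in WT replicate 1, against 1.59 to 9.28 CPM in the others. Of the 6, 4 (Cd3e, Cd3g, Cd8a and Cd8b1) were above all others in both, beside 17.8% of all tested genes, and 2 were neither above nor below. Fibroblast genes summed to between 1.29 and 15.9 CPM in Degs2_KO and between 4.08 and 30.8 CPM in WT, smooth muscle genes to between 4.09 and 6.47 CPM in Degs2_KO and between 4.01 and 5.79 CPM in WT, and myeloid genes to between 1.06 and 3.09 CPM in Degs2_KO and between 2.22 and 4.26 CPM in WT. Of the 5 tested myeloid genes, 4 (C1qb, C1qc, Csf1r and Lyz2) were below all others in Degs2_KO replicate 3 and WT replicate 1. C1qa was above in both. Of the 4 tested glia and neuron genes, Uchl1 was below in both and 3 were neither. Of all tested genes, 16.6% were below in both and 17.8% above. The part of these cells in the aquaporin values was not tested.

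Mature colonocyte genes gave mixed values beside Aqp8. Car4, a carbonic anhydrase of the surface epithelium, ranged from 402 to 699 CPM in Degs2_KO and from 431 to 651 CPM in WT. Car1, another carbonic anhydrase, was at 6570 CPM in Degs2_KO replicate 3 and 6179 CPM in WT replicate 1, against 522 to 1941 CPM in the others. Of the 10 mature colonocyte genes, 3 (Car1, Guca2b and Cyp2c55) were above all others in both Degs2_KO replicate 3 and WT replicate 1. Another 2 (Ceacam20 and Slc20a1) were below in both, and 5 were neither. Aqp1 was likewise above and Aqp4 below, as were 17.8% and 16.6% of all tested genes. Summed genes of crypt stem and dividing cells ranged from 633 to 807 CPM in Degs2_KO and from 453 to 745 CPM in WT. Goblet cell genes, without Fcgbp and Clca1, whose estimates had failed, ranged from 5735 to 25699 CPM in Degs2_KO and from 10735 to 29193 CPM in WT. Most of that spread was Muc2, at 522 CPM in Degs2_KO replicate 3, 24564 CPM in WT replicate 1 and 5907 to 20373 CPM in the others. Agr2, Tff3, Zg16 and Spink4 varied less, with Agr2 from 1142 to 1785 CPM over all libraries.

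Genes whose levels ran most like each aquaporin were named by the highest Pearson r of log2 CPM over the 8 libraries, among 9262 other genes with a mean log2 CPM of at least 3. These values are descriptions, the points share libraries, and the r over the 6 libraries that did not stand apart is given beside each. The genes were picked by the r over all 8 libraries, which include these 6, so the second r is not an independent check. For Aqp8 they were Cdip1 (r = 0.906, and 0.96 over 6 libraries), Acy3, an aminoacylase gene (0.901 and 0.89), and Slc26a3, the chloride and bicarbonate exchanger of the colonocyte brush border (0.891 and 0.95). Only 2 of the 9262 genes had an r above 0.9 with Aqp8. Slc26a3 was at 1095, 1238, 755 and 753 CPM in Degs2_KO replicates 1 to 4, against 826, 962, 1307 and 1267 CPM in WT replicates 1 to 4, and like Aqp8 was lowest in Degs2_KO replicates 3 and 4.

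For Aqp1 they were Orai3, a store-operated calcium channel gene (0.994, and 0.90 over 6 libraries), Prodh, proline dehydrogenase (0.993 and 0.88), and Sccpdh (0.993 and 0.86), among 364 genes with an r above 0.9. Orai3 was at 19.8 CPM in Degs2_KO replicate 3 and 19.2 CPM in WT replicate 1, against 12.3 to 14.1 CPM in the others. For Aqp11 they were Tm7sf3 (0.991 and 0.97), Ociad2 (0.989 and 0.97) and Akr1c19, an aldo-keto reductase gene (0.988 and 0.96), among 244 genes. Akr1c19 was at 235 and 239 CPM in these 2 libraries, against 80.9 to 129 CPM in the others.

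For Aqp4 they were Cenpj, a centriole gene (0.973, and 0.90 over 6 libraries), S100a6, a calcium-binding protein gene (0.967 and 0.89), and Atp6v1a, a subunit of the vacuolar proton pump (0.962 and 0.90), among 63 genes. S100a6 was at 450 CPM in Degs2_KO replicate 3 and 435 CPM in WT replicate 1, against 557 to 666 CPM in the others. Between aquaporins, r over 8 libraries was 0.83 for Aqp1 with Aqp11 and -0.83 for Aqp1 with Aqp4. Over the 6 libraries these were -0.18 and -0.03, so both rested on the 2 libraries that stood apart.

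Salt transport drives the water flow that aquaporins carry. Of 23 salt and chloride transport genes, 0 passed edgeR's threshold in either direction between genotypes, where 0% of the 16132 genes tested did. The median log2 fold change was -0.03, against -0.01 for all tested genes. The smallest p were those of Atp1b3, a sodium pump subunit, at 0.14 ± 0.09, and Kcnma1, a potassium channel, at 0.17 ± 0.13 (log2 fold change ± SE). In the 2 libraries that stood apart, 3 of the 23 were above all others and 8 were below, beside 17.8% and 16.6% of all genes. Of the 8, chosen after their values were seen, Atp12a, the colonic proton and potassium pump, was at 63.8 CPM in Degs2_KO replicate 3 and 84.7 CPM in WT replicate 1, against 299 to 591 CPM in the others. Scnn1g, a sodium channel subunit, was at 0.878 and 0.79 CPM there, against 5.2 to 9.95 CPM.

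Of 11 tested genes for hormone control of salt and water, 0 passed, with a median log2 fold change of -0.03. Since 0% of the 16132 genes tested passed, this count and those of the next lists are not particular to these genes. Nr3c2, the aldosterone receptor, was at -0.15 ± 0.10 and Sgk1, a kinase induced by corticosteroids, at 0.21 ± 0.22 (log2 fold change ± SE). Avpr2, the vasopressin receptor that controls kidney aquaporins, stayed under 1 CPM in every library. Of 19 genes for hydrogen peroxide sources and sinks, a molecule that Aqp8 passes, 0 passed. Their median was 0.06, with Duoxa2, an oxidase maturation factor, at -0.42 ± 0.23 and Txn1, a thioredoxin, at 0.15 ± 0.10. Of 11 glycerol handling genes, 0 passed, with a median of -0.01 and with Gpam, an acyltransferase of triglyceride synthesis, at -0.19 ± 0.17 and Plin2, a lipid droplet coat protein, at -0.13 ± 0.21.

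The rest of the family was at or near 0. Mip, Aqp2, Aqp5 and Aqp6 had 0 fragments in every library, which allows up to 3 fragments in each, a bound that covers counting error only. Aqp9, a glycerol and urea channel of liver, had 3 fragments over the Degs2_KO libraries and 4 over the WT libraries. Aqp12, known from pancreatic acinar cells, had 64 and 44 fragments in these groups and a log2 fold change of 0.46 ± 0.49 (SE) with an adjusted p of 1 by edgeR.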

How the data were processed

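Per the submitters' processing notes, cutadapt 1.9, TopHat2 2.0.10, Cufflinks 2.1.1 and Cuffdiff were used with mm10; the annotation and any strand setting are not stated there. The authors deposited an estimated count of fragments for each gene in each library. These are multiples of 1 step per library (96.9% to 97.2% of values up to 100 whole within 0.02). Each has a status word, per the file headers. Division by the step gave fragments. Genes with a FAIL or HIDATA status (47) were left out, and 24 columns were not used.

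Estimated counts were rounded. edgeR 4.0.16 in R 4.3.3 (filterByExpr with a minimum count of 10 and total of 15, 16132 genes, TMM, quasi-likelihood F test, 2-sided, group only, Benjamini-Hochberg) compared Degs2_KO with WT. CPM are TMM-normalized; log2 CPM used a prior count of 2. DESeq2 1.42.0 and limma 3.58.1 were alternatives. The fit was tested on simulated data. Symbols matched 54074 IDs; positions and exon lengths are GENCODE M21 on GRCm38, the mm10 assembly; promoters are RefSeq. Members and lists were chosen with earlier results of these data known. Named genes were the members, the 3 genes most like each tested member, and the 2 of smallest p per pathway list. Other list genes in the text, such as Car1, Lpl and Atp12a, were chosen after their values were seen.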

Additional observations from a re-analysis of the deposited data

Results flagged for a closer look

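In both genotypes 1 library lay far from the other 3 for Aqp1. Aqp1 was at 112 CPM in Degs2_KO replicate 3, where the next library of that group was at 37.8 CPM, and the gap was 0.888 of the group's range. It was at 92.7 CPM in WT replicate 1, where the next was at 33.7 CPM, and the gap was 0.897 of the range, both above Dixon's critical value for 4 samples. Of the 14 groups of values examined in this way these were the only ones past the limit. Chance passes about 1 in 20 where libraries are alike, but both of these libraries stood apart for many genes. Both were above the other 6 libraries for 17.8% of all tested genes, so the Aqp1 flag is not a separate observation. Both libraries also had the lowest posterior Hox sums, which include Hoxd13, already used to show that they stood apart. The part of position in these values was not tested.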

How the results depend on the processing

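Each fold change was refitted under 19 alternatives, and none gave an adjusted p under 0.05 for an aquaporin (lowest 0.879, Aqp1 without WT replicate 1). Aqp4 kept its direction in 19 of 19 (0.06 to 0.33), Aqp1 and Aqp8 in 18 and Aqp11 in 17. With a library left out, log2 fold changes ranged from -0.41 to 0.87 for Aqp1 (negative only without Degs2_KO replicate 3), 0.06 to 0.33 for Aqp4, -0.32 to 0.07 for Aqp8 (positive only without Degs2_KO replicate 4) and -0.26 to 0.09 for Aqp11 (positive only without WT replicate 1). With the block on adjoining ID numbers (3 pairs, the other 2 libraries left out) Aqp11 was at 0.003. Deviations of same-numbered libraries correlated at -0.42, 0.44, -0.56 and -0.10 for replicates 1 to 4, and 1 of 8 libraries correlated best with its own number. Replicates 1 and 3 hold the libraries that stood apart, so these correlations cannot exclude pairing by number. The replicate block gave 0.23, 0.18, -0.16 and -0.09 for Aqp1, Aqp4, Aqp8 and Aqp11, with 0 genes called. The count of genes called was 0 under every setting except DESeq2, which called 2. With the longest transcript as length, the WT share of Aqp8 was 41.5%, in place of 44.8%; without 1 library the share ranged from 35.7% to 42.7% in Degs2_KO and from 44.4% to 45.3% in WT. Aqp3 and Aqp7 had too few fragments for a fold change, which depth limits.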

Other observations

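Some glycerol and peroxide genes lay outside the range of the other libraries in those that stood apart; the genes named were chosen after their values were seen. Gpd1, the cytosolic glycerol phosphate dehydrogenase, was at 60.6 CPM in Degs2_KO replicate 3 and 60.5 CPM in WT replicate 1, against 29.1 to 32.4 CPM in the other 6 libraries, while Gk, glycerol kinase, was at 36.6 and 43.8 CPM, against 80.7 to 112 CPM. Of 11 glycerol handling genes 5 were above all others in both libraries and 1 was below, where 17.8% of all tested genes were above and 16.6% below. Of 19 peroxide genes 8 were above and 1, Prdx6, a peroxiredoxin gene, was below, at 779 and 842 CPM against 1178 to 1968 CPM.

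The summed CPM of the 6 aquaporins was 2077, 1717, 1292 and 1620 in Degs2_KO replicates 1 to 4, against 1207, 1432, 1735 and 1701 in WT replicates 1 to 4. The libraries that stood apart had the lowest sums.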
